A study of Homo sapiens with 18 samples.

Results

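The 43 genes described here are ATF4, its partner factor DDIT3 (CHOP) and genes known as their targets in the integrated stress response. They were chosen by name from the 36684 genes listed, with earlier results of these data known. All 43 were among the 14557 genes with enough counts to be tested, so none dropped out through the filter on low counts. They were grouped by role into 5 transcription factors, 8 stress and death regulators, 10 enzymes of amino acid and one-carbon synthesis, 4 amino acid transporters, 12 genes of tRNA charging and 4 secreted factors or receptors.

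Polyadenylated RNA was sequenced from Hep3B, a human hepatocellular carcinoma line, in 6 groups of 3 libraries. Con was the untreated control, Model received free fatty acids (FFA), and the other 4 groups received FFA together with fucoxanthin at 0.5, 1 or 2 µM (FUCO-0.5, FUCO-1, FUCO-2) or with Resmetirom (RES), a thyroid hormone receptor beta agonist used as the positive control. All groups but Con therefore carried FFA, and neither agent was given without FFA in these libraries. The dose of Resmetirom, the amount of FFA and the times of treatment of these libraries are not given in the sources used here, so the RES and FUCO values compare these cultures and not matched doses. The libraries held 16916688 to 23083498 counts each, and all come from 1 tumour line in culture. RNA was taken from whole cultures and not from single cells, so that less RNA per cell and fewer cells of a kind cannot be told apart. Levels below are in CPM, the read count relative to the library's total after scaling for library composition (TMM), and a gene is said to have passed where the adjusted p of edgeR's quasi-likelihood test was below 0.05. Adjusted p-values come from that test throughout.

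The integrated stress response starts when kinases that sense amino acid shortage, unfolded protein in the endoplasmic reticulum, haem shortage or viral RNA phosphorylate the translation factor eIF2. General translation then slows while the ATF4 message is translated better, and ATF4, with partners of the C/EBP family, raises transcription of genes for making and importing amino acids and charging tRNAs. Prolonged signalling induces DDIT3 and death-promoting genes, and PPP1R15A closes the loop by directing a phosphatase to eIF2. Because ATF4 is controlled largely at translation, RNA counts of ATF4 do not measure its protein.

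ATF4 and its partners bind a composite element whose core is TGATGNAA. The promoters of the members were searched for these letters on both strands (TTNCATCA on the other strand). RefSeq windows (GRCh38.p14, 250 bases before to 50 after each start) were at hand for 35 members. In any of their windows, 13 of them (37.1%) held a match and 22 held none. A match was held by 2.88% of the 11524 tested genes with a window and 4.46% of all 27305 genes with a window. Counted by single window, the share was 3.62% of 35116. Matches lay in 6 of 10 tRNA charging genes, 2 of 3 transporters, 2 of 5 transcription factors, 1 of 7 stress and death regulators, 1 of 6 synthesis enzymes and 1 of 4 secreted factors or receptors. The members were named as ATF4 targets, so this share describes the choice of genes and is not independent of it. The 8 matches that lay wholly before the start are printed 5′ to 3′ on the strand of the gene, with the matched letters in capitals and 16 bases on each side, fewer after the match in JDP2 and IARS1, where the printed run ends at the start.
CEBPG, 42 bases before the start (chr19:33374055-33374094, plus strand): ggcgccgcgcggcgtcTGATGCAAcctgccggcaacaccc
JDP2, 16 bases before the start (chr14:75427990-75428021, plus strand): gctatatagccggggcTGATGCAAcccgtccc
CHAC1, 209 bases before the start (chr15:40953246-40953285, plus strand): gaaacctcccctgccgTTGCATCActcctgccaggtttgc
ASNS, 68 bases before the start (chr7:97872453-97872492, minus strand): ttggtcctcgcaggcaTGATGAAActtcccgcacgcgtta
AARS1, 187 bases before the start (chr16:70289670-70289709, minus strand): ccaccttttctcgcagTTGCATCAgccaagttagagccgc
GARS1, 33 bases before the start (chr7:30594829-30594868, plus strand): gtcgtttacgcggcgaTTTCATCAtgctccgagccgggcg
IARS1, 13 bases before the start (chr9:92293698-92293726, minus strand): ccgcattttcagcgcgTTGCATCAcctcc
FGF21, 54 bases before the start (chr19:48755454-48755493, plus strand): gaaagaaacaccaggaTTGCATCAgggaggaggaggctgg
Read in the forward sense, the variable letter of the core was C in CEBPG, JDP2, CHAC1, AARS1, IARS1 and FGF21 and A in ASNS and GARS1. A match is a run of letters, and no binding was measured here.

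Taken as a share of all counts, the 43 genes held 0.781% to 0.866% of each Con library, 0.702% to 0.726% in Model, 0.589% to 0.632% in FUCO-0.5, 0.656% to 0.702% in FUCO-1, 0.879% to 0.951% in FUCO-2 and 1.14% to 1.21% in RES. On this share of raw counts, the libraries of Con, Model, FUCO-0.5, FUCO-2 and RES did not overlap, while FUCO-1 reached into the Model range. The share is taken before TMM scaling, whose factors were 0.9326 to 0.9447 in Con and 1.071 to 1.078 in RES. Scaling therefore raises Con relative to RES, and the gaps between groups differ in CPM. In scaled CPM the synthesis enzymes summed to 2184.89 to 2415.71 in Con and 2186.58 to 2334.17 in FUCO-2, which overlap. The lowest group mean was that of FUCO-0.5 for 32 of 43 members, where 10.3% of all tested genes had their lowest mean, and the highest was that of RES for 32 of 43, against 33.4% of all tested genes. Per kilobase of exon, ATF4 was the highest of the 43 in Con at 362.8 CPM per kb, above PSAT1 at 286.1 and TRIB3 at 153.3. In RES it ranked 3, at 277.7, below PSAT1 at 451.7 and GDF15 at 326.4. The length took in every annotated exon of a gene (22418 bases for IARS1), so this order between genes is approximate.

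**Figure D1:**
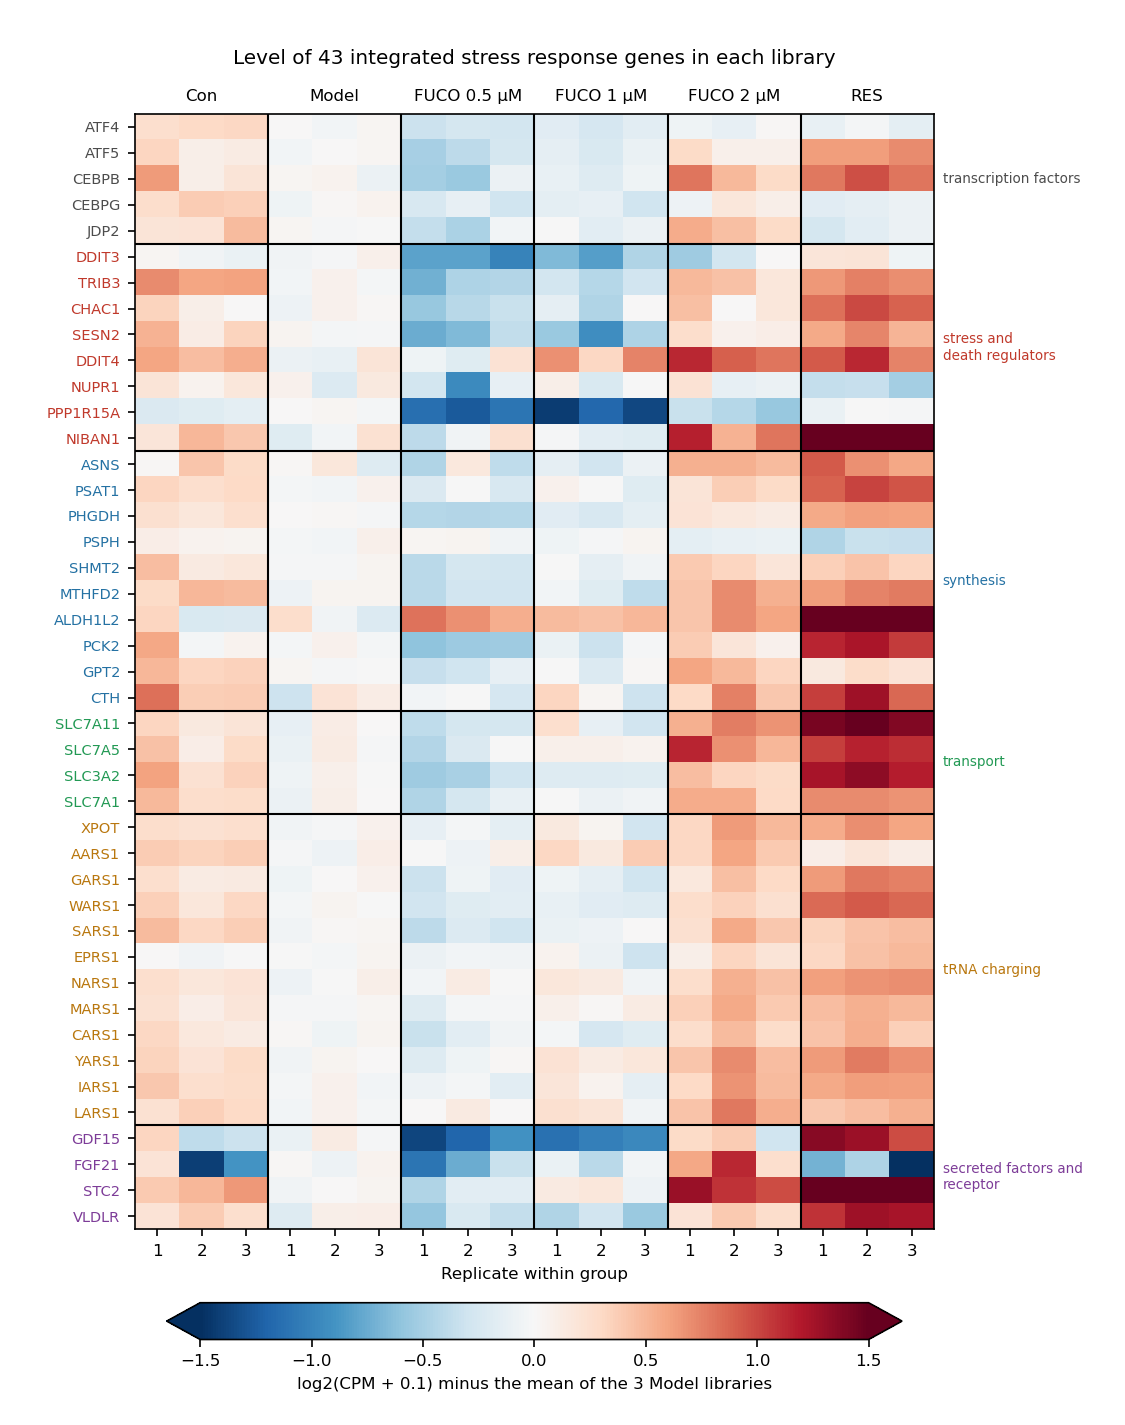
Level of each of the 43 genes (rows, coloured by role) in each of the 18 libraries (columns, by group and replicate), as log2(CPM + 0.1) minus the mean of the 3 Model libraries, with colours capped at 1.5 in either direction. The FUCO-0.5 columns are mostly below Model, and the FUCO-2 and RES columns mostly above it.

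Many of the genes were slightly lower with FFA alone than in Con. In Model, 21 of 43 members were lower and 0 higher, where 17.6% of all tested genes passed, 8.43% higher and 9.12% lower. No member reached a log2 fold change beyond 1, where 1.95% of all tested genes passed and did. The median member stood at -0.28, against 0.001 for all tested genes, and 37 of 43 were negative. The libraries of the 2 groups did not overlap for 31 of 43 members, against 35.7% of all tested genes. TRIB3 fell most in this comparison, and the members that passed came from all 6 roles.

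Members passed mostly as lower than Model at the 2 low doses of FUCO and mostly as higher at the top dose. At 0.5 µM, 12 of 43 members were lower and 0 higher, where 1.45% of all tested genes passed, 1.16% lower and 0.289% higher. At 1 µM, 6 were lower and 2 higher, where 3.21% passed, 2.32% lower and 0.893% higher. At 2 µM, 27 were higher and 1 lower, where 20.5% passed, 10.8% higher and 9.71% lower, and the libraries did not overlap for 36 members, against 36.3% of all tested genes. The median log2 fold change of the 43 went from -0.25 at 0.5 µM to -0.10 at 1 µM and 0.41 at 2 µM, while the median over all tested genes stayed between -0.002 and 0.01. With RES, 34 members were higher and 3 lower than in Model, with a median of 0.66, where 49.4% of all tested genes passed, 24.4% higher and 25.1% lower, and the libraries did not overlap for 40 members, against 64% of all tested genes. These 4 comparisons share the same Model libraries and are not independent of one another. Beyond a log2 fold change of 1 lay 2 members at 0.5 µM (0.268% of all tested genes), 2 at 1 µM (0.495%), 1 at 2 µM (1.6%) and 10 with RES (9.91%). The shares of all tested genes that passed at 0.5, 1 and 2 µM and with RES (1.45%, 3.21%, 20.5% and 49.4%) are also the background of the counts by role that follow.

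The counts at the lower doses depended on single libraries. Without FUCO-0.5 replicate 1 the count at 0.5 µM was 5, and without Model replicate 2 it was 7. The count at 1 µM was 4 without Model replicate 2 and 5 without FUCO-1 replicate 1 or FUCO-1 replicate 3. Those at 2 µM and with RES stayed between 23 and 30 and between 34 and 37 when any 1 library was left out.

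**Figure D2:**
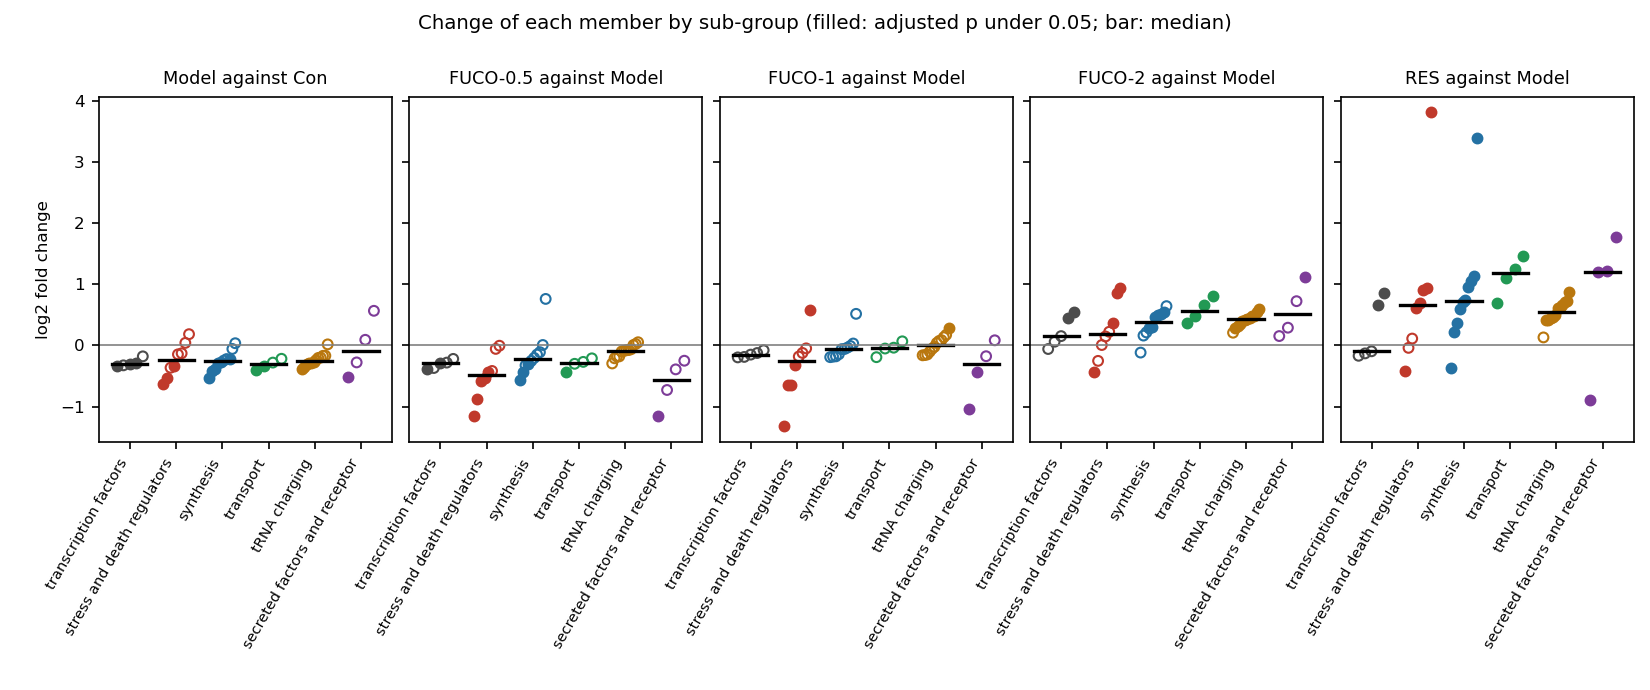
Log2 fold change of each of the 43 genes, by role, in 5 comparisons (Model against Con, and FUCO-0.5, FUCO-1, FUCO-2 and RES each against Model), with filled points for an adjusted p below 0.05 and a bar for the median of the role. The transport and tRNA charging points lie near 0 at 1 µM and above 0 at 2 µM and with RES, whereas the stress and death regulators lie mostly below 0 at 0.5 and 1 µM.

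Of the 5 transcription factors, 2 were lower at 0.5 µM, 0 passed at 1 µM, and 2 were higher at 2 µM and with RES. At 1 µM, 2 of them stood at an unadjusted p below 0.05, as did 2375 of the 14557 tested genes. The 40% of the role that passed at 0.5 µM, at 2 µM and with RES was above the share of all tested genes called in the same direction. Those shares were 1.16% lower at 0.5 µM, 10.8% higher at 2 µM and 24.4% higher with RES. In either direction, 1.45%, 20.5% and 49.4% of all tested genes passed, so that the share with RES was below this wider background. The count at 0.5 µM was 0 without FUCO-0.5 replicate 1 or Model replicate 3. ATF4 itself held 924, 955 and 965 CPM in Con, 781, 756 and 792 in Model, 621, 647 and 642 in FUCO-0.5, 689, 649 and 693 in FUCO-1, 739, 711 and 783 in FUCO-2 and 716, 759 and 702 in RES. Con was the highest group and FUCO-0.5 the lowest, and neither overlapped Model. ATF4 was lower in Model than in Con, at -0.29 ± 0.0631 (SE, adjusted p = 0.00215) on the log2 scale, and lower again at 0.5 µM, at -0.29 ± 0.0632 (SE, adjusted p = 0.0159). The second call was lost without FUCO-0.5 replicate 1 (adjusted p = 0.104), Model replicate 1 (0.0801) or Model replicate 3 (0.0908). At 2 µM and with RES, where most members rose, the ATF4 message did not pass, with a log2 fold change of -0.06 (95% interval -0.20 to 0.08, adjusted p = 0.548) and -0.10 (-0.23 to 0.04, adjusted p = 0.211).

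ATF5, a related factor that is also controlled at translation, held 89.9, 76.8 and 78.3 CPM in Con, 70, 72.6 and 73.7 in Model, 51.1, 55 and 60.3 in FUCO-0.5, 65.8, 61.7 and 67.3 in FUCO-1, 88.2, 76.2 and 75.8 in FUCO-2 and 111, 111 and 118 in RES. All RES libraries lay above all others, and all FUCO-0.5 libraries lay below those of Model. With RES, ATF5 rose by 0.65 ± 0.0784 (SE, adjusted p = 2.23e-07), and at 0.5 µM it stood at -0.38 ± 0.0801 (SE, adjusted p = 0.0109), a call lost without FUCO-0.5 replicate 1 (adjusted p = 0.108), Model replicate 2 (0.0581) or Model replicate 3 (0.0652). Reads at ATF5 overlap the annotated genes IL4I1 and NUP62, and the sources used here do not say whether strand was counted. Of the 3 other factors, CEBPB and JDP2 rose at 2 µM, by 0.54 and 0.44, and CEBPB rose with RES, by 0.86. JDP2 stood at -0.17 with RES (adjusted p = 0.188), and CEBPG, a dimer partner of ATF4, passed against Model in neither FUCO nor RES.

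Among the stress and death regulators, DDIT3, TRIB3, SESN2 and PPP1R15A were lower than Model at both 0.5 and 1 µM. DDIT3, the factor that promotes cell death when stress persists, held 30.9, 29.3 and 28.3 CPM in Con, 29.2, 29.9 and 31.8 in Model, 17.3, 17.3 and 15.1 in FUCO-0.5, 19.1, 17.1 and 22 in FUCO-1, 20.9, 25 and 30.4 in FUCO-2 and 34.4, 34.8 and 29.1 in RES. All libraries of FUCO-0.5 and FUCO-1 lay below all of Model, while FUCO-2 and RES overlapped it. On the log2 scale DDIT3 was lower at 0.5 µM, at -0.87 ± 0.116 (SE, adjusted p = 3.50e-05), and at 1 µM, at -0.64 ± 0.115 (SE, adjusted p = 0.00121). At 2 µM it did not pass (-0.25, 95% interval -0.50 to -0.01, adjusted p = 0.115), and with RES it stood at 0.11 (interval -0.13 to 0.35, adjusted p = 0.423). DDIT3 overlaps the end of MARS1 on chromosome 12, a gene with 121760 counts in all libraries against 8686 for DDIT3, and MARS1 rose at 2 µM and with RES, by 0.44 and 0.50. The share of DDIT3 counts that could come from MARS1 was not tested.

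PPP1R15A (GADD34), which directs protein phosphatase 1 to eIF2, held 161, 164 and 168 CPM in Con, 187, 189 and 182 in Model, 84.7, 77.9 and 87.1 in FUCO-0.5, 69.6, 82.6 and 72.2 in FUCO-1, 148, 139 and 126 in FUCO-2 and 174, 185 and 184 in RES. Each FUCO group lay below Model without overlap, and FUCO-2 lay above the 2 lower doses. It was the only member that passed as lower than Model at every dose, at -1.16 ± 0.0746 (SE, adjusted p = 1.73e-10) for 0.5 µM, -1.32 ± 0.075 (SE, adjusted p = 9.40e-12) for 1 µM and -0.44 ± 0.0732 (SE, adjusted p = 0.000149) for 2 µM. With RES it stood at -0.04 (interval -0.20 to 0.12, adjusted p = 0.669).

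TRIB3, a pseudokinase induced by ATF4 and DDIT3, held 530.1, 489.7 and 494 CPM in Con, 316, 340.4 and 319.5 in Model, 197, 236 and 239.9 in FUCO-0.5, 269, 243 and 266 in FUCO-1, 455, 442 and 367 in FUCO-2 and 508, 549 and 527 in RES. Its groups formed separate bands in the order FUCO-0.5, FUCO-1, Model, FUCO-2 and then RES with Con, which overlapped each other. Against Model it was lower at 0.5 µM (-0.54 ± 0.0836 SE, adjusted p = 0.000342), higher at 2 µM (0.37 ± 0.0831 SE, adjusted p = 0.00247) and higher with RES (0.70 ± 0.0832 SE, adjusted p = 1.95e-07). The lower value at 1 µM (-0.33 ± 0.0833 SE, adjusted p = 0.0259) was lost when any 1 library of Model or FUCO-1 was left out (adjusted p = 0.145 where Model replicate 2 was the one left out). SESN2, which restrains mTORC1, was lower at 0.5 and 1 µM, at -0.58 and -0.64, and higher with RES, at 0.61. Its call at 0.5 µM was lost without FUCO-0.5 replicate 1 (adjusted p = 0.0674).

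DDIT4, a second restraint on mTORC1, held 62.8, 57.8 and 61.1 CPM in Con, 39.3, 38.7 and 47.9 in Model, 40.1, 36.8 and 48.6 in FUCO-0.5, 67.1, 51.8 and 70.1 in FUCO-1, 91.2, 77.6 and 73.1 in FUCO-2 and 79, 91.7 and 69.9 in RES. FUCO-1, FUCO-2 and RES lay above Model without overlap, while FUCO-0.5 overlapped it. DDIT4 stood at -0.01 at 0.5 µM (adjusted p = 0.995) and was higher at 1 µM (0.59 ± 0.121 SE, adjusted p = 0.00519), at 2 µM (0.94 ± 0.121 SE, adjusted p = 6.21e-06) and with RES (0.93 ± 0.12 SE, adjusted p = 6.36e-07). Without Model replicate 2 the adjusted p at 1 µM was 0.0516. NIBAN1, a stress-induced gene, held 3.47, 4.36 and 4.06 CPM in Con, 2.69, 2.95 and 3.57 in Model, 2.3, 2.93 and 3.63 in FUCO-0.5, 3.02, 2.73 and 2.68 in FUCO-1, 6.97, 4.42 and 5.38 in FUCO-2 and 38.4, 46.8 and 44.3 in RES. The RES libraries lay far above all others, with a mean of 43.2 ± 4.31 CPM (SD, n = 3) against 3.07 ± 0.456 in Model. NIBAN1 rose by 3.81 ± 0.153 (SE, adjusted p = 1.25e-15) with RES and by 0.86 ± 0.179 (SE, adjusted p = 0.00132) at 2 µM. CHAC1, which degrades glutathione, rose with RES by 0.90, and NUPR1, a stress-induced chromatin factor, was lower with RES at -0.41, a call lost without RES replicate 3 (adjusted p = 0.0666), Model replicate 1 (0.0536) or Model replicate 3 (0.0792). At 0.5 µM CHAC1 stood at -0.44 ± 0.113 (SE, adjusted p = 0.0487), a call lost in 14 of 24 alternative settings, among them those without any 1 library of Model or FUCO-0.5. In all, 5 of 8 regulators were lower at 0.5 µM (3 without FUCO-0.5 replicate 1), 4 lower and 1 higher at 1 µM (3 lower and 0 higher without Model replicate 2), 1 lower and 3 higher at 2 µM, and 5 higher and 1 lower with RES, against 1.45%, 3.21%, 20.5% and 49.4% of all tested genes passing.

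**Figure D3:**
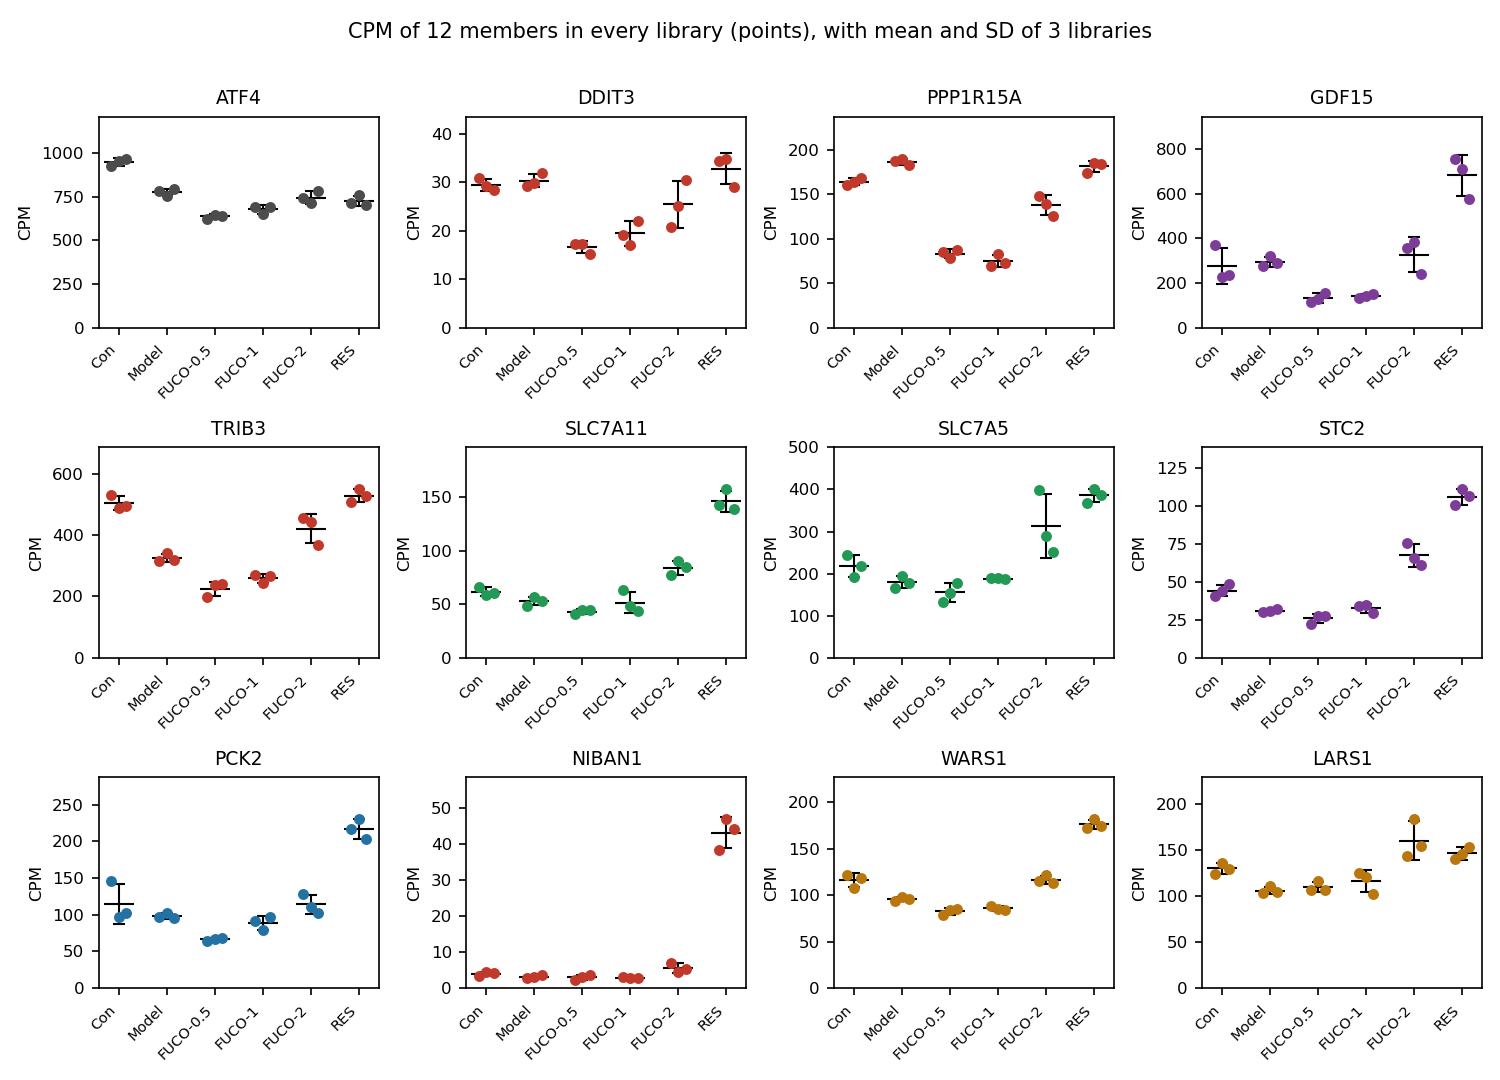
CPM of 12 of the genes in each library (points) with the group mean and SD (n = 3), for Con, Model, the 3 FUCO doses and RES, on separate linear axes. PPP1R15A and GDF15 are lowest at 0.5 and 1 µM, SLC7A11, SLC7A5 and STC2 rise at 2 µM and further with RES, and NIBAN1 is high in RES.

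Of the 10 enzymes of amino acid and one-carbon synthesis, 3 were lower at 0.5 µM (PHGDH, SHMT2, PCK2) and 0 passed at 1 µM. At 2 µM, 6 were higher, and with RES, 9 were higher and 1 lower. Of all tested genes, 1.45%, 3.21%, 20.5% and 49.4% passed in these comparisons. At 1 µM, 2 of the enzymes stood at an unadjusted p below 0.05, as did 2375 of the 14557 tested genes. The count at 2 µM was 3 in place of 6 without FUCO-2 replicate 2 or Model replicate 1, and that at 0.5 µM was 1 in place of 3 without FUCO-0.5 replicate 1 or Model replicate 2. The median log2 fold changes were -0.23, -0.06, 0.39 and 0.73 in that order. The SHMT2 call at 0.5 µM was fragile and remained in 10 of 24 alternative settings.

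PCK2, the mitochondrial PEP carboxykinase, held 147, 96.2 and 102 CPM in Con, 96.2, 103 and 96.1 in Model, 64.5, 67.2 and 68.1 in FUCO-0.5, 91.5, 78.6 and 96.8 in FUCO-1, 128, 111 and 103 in FUCO-2 and 217, 229.8 and 203 in RES. The RES libraries lay above all others, the FUCO-0.5 libraries lay below all others, and Con replicate 1 stood above the other 2 Con libraries. PCK2 rose with RES by 1.14 ± 0.113 (SE, adjusted p = 9.70e-09) and was lower at 0.5 µM, at -0.56 ± 0.115 (SE, adjusted p = 0.00774), where the call was lost without FUCO-0.5 replicate 1 (adjusted p = 0.0571) or Model replicate 2 (0.0565). At 2 µM PCK2 did not pass (0.21, interval -0.04 to 0.46, adjusted p = 0.197).

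ALDH1L2, a mitochondrial enzyme of folate metabolism, held 0.751, 0.478 and 0.487 CPM in Con, 0.713, 0.556 and 0.487 in Model, 1.1, 0.993 and 0.893 in FUCO-0.5, 0.842, 0.819 and 0.857 in FUCO-1, 0.806, 1.01 and 0.926 in FUCO-2 and 5.61, 6.84 and 6.3 in RES. It was at most 1.1 CPM outside RES, and the RES libraries lay above all others. With RES it rose by 3.40 ± 0.206 (SE, adjusted p = 1.37e-12), while at 2 µM it stood at 0.64 (interval 0.03 to 1.26, adjusted p = 0.142). CTH, which makes cysteine from cystathionine, held 14.8, 10.7 and 10.8 CPM in Con, 6.64, 9.57 and 8.94 in Model, 8.07, 8.26 and 6.92 in FUCO-0.5, 10.4, 8.47 and 6.68 in FUCO-1, 10.2, 14.1 and 11 in FUCO-2 and 17.1, 20.1 and 15.2 in RES. Again all RES libraries lay above those of the other groups. CTH rose by 1.05 ± 0.164 (SE, adjusted p = 9.64e-06) with RES and by 0.49 ± 0.171 (SE, adjusted p = 0.0426) at 2 µM, and the second call was lost without FUCO-2 replicate 2 (adjusted p = 0.236), Model replicate 1 (0.217), Model replicate 3 (0.0716) or RES replicate 1 (0.051).

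The 3 enzymes of serine synthesis passed in different directions with RES. There, PHGDH and PSAT1 were higher, by 0.60 and 0.95, whereas PSPH, the last step, was lower at -0.38 ± 0.0622 (SE, adjusted p = 2.12e-05). PSPH has a pseudogene in the table, PSPHP1, with 14645 counts against 105072 for PSPH, so its counts may be split between the copies. MTHFD2, of mitochondrial one-carbon metabolism, rose by 0.55 at 2 µM and 0.72 with RES, and ASNS, asparagine synthetase, by 0.52 and 0.75. The ASNS call at 2 µM was lost without Model replicate 1 (adjusted p = 0.0585), Model replicate 3 (0.115) or FUCO-2 replicate 2 (0.0608). PSAT1 stood at 0.28 ± 0.0768 (SE, adjusted p = 0.0108) at 2 µM, a call lost without FUCO-2 replicate 2 (adjusted p = 0.0602) or Model replicate 1 (0.0503).

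All 4 amino acid transporters rose at 2 µM, where 20.5% of all tested genes passed, with a median log2 fold change of 0.57. All 4 rose with RES, where 49.4% passed, with a median of 1.18. At 0.5 µM, 1 was lower, and at 1 µM, 0 passed, with 1 at an unadjusted p below 0.05. That level was reached by 2375 of the 14557 tested genes at 1 µM. SLC7A11, which imports cystine in exchange for glutamate, held 66.4, 58.8 and 60.6 CPM in Con, 48.9, 57.2 and 53.5 in Model, 40.8, 44.3 and 44.4 in FUCO-0.5, 63, 48.6 and 43.5 in FUCO-1, 77.1, 90.3 and 84.8 in FUCO-2 and 143, 158 and 139 in RES. The FUCO-2 libraries lay above all Con, Model and lower-dose libraries, and the RES libraries lay above those of FUCO-2. SLC7A11 rose by 0.66 ± 0.101 (SE, adjusted p = 5.72e-05) at 2 µM and 1.46 ± 0.101 (SE, adjusted p = 1.44e-11) with RES.

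SLC7A5 (LAT1), an importer of large neutral amino acids, held 244, 192 and 219 CPM in Con, 167, 195 and 178 in Model, 132, 155 and 178 in FUCO-0.5, 189.8, 189 and 186 in FUCO-1, 398, 288 and 253 in FUCO-2 and 369, 401 and 388 in RES. Both FUCO-2 and RES lay above Model, and FUCO-2 replicate 1 stood within the range of RES. SLC7A5 rose by 0.80 ± 0.121 (SE, adjusted p = 5.02e-05) at 2 µM and 1.10 ± 0.122 (SE, adjusted p = 5.75e-08) with RES. SLC3A2 (4F2hc), the heavy chain that carries both SLC7A5 and SLC7A11 to the membrane, held 301, 232 and 251 CPM in Con, 189.6, 208 and 197 in Model, 137, 141 and 161 in FUCO-0.5, 173, 173 and 174 in FUCO-1, 274, 247 and 242 in FUCO-2 and 468, 501 and 447 in RES. Here RES lay above all other libraries, FUCO-2 lay within the Con range and FUCO-0.5 lay below Model. SLC3A2 stood at -0.43 ± 0.0854 (SE, adjusted p = 0.00509) at 0.5 µM, 0.36 ± 0.0848 (SE, adjusted p = 0.00383) at 2 µM and 1.25 ± 0.0854 (SE, adjusted p = 1.15e-11) with RES, and the call at 0.5 µM was lost without FUCO-0.5 replicate 1 (adjusted p = 0.0616) or Model replicate 2 (0.0525). SLC7A1, the cationic amino acid transporter, rose by 0.47 and 0.70 in the same comparisons.

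Genes of tRNA charging, XPOT (which exports tRNA from the nucleus) and 11 cytosolic aminoacyl-tRNA synthetases, rose in equal number at 2 µM and with RES. None passed at 0.5 µM, where 3 stood at an unadjusted p below 0.05, as did 1641 of the 14557 tested genes. At 1 µM AARS1 alone passed, at 0.28 ± 0.0767 (SE, adjusted p = 0.0425), a call that remained in 15 of 24 alternative settings. At 2 µM, where 20.5% of all tested genes passed, 11 of 12 were higher, with EPRS1 the exception (0.21, adjusted p = 0.0691), and with RES, where 49.4% passed, 11 of 12 were higher, with AARS1 the exception (0.13, adjusted p = 0.166). The median log2 fold changes were 0.42 at 2 µM and 0.55 with RES, and none of the 12 exceeded 1 in either. Of these calls at 2 µM, those of CARS1 and GARS1 were lost without FUCO-2 replicate 2 (adjusted p = 0.0604 and 0.0785), and that of GARS1 also without Model replicate 1 (0.0547).

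WARS1, the tryptophanyl synthetase, held 122, 108 and 119 CPM in Con, 93.6, 98 and 95.2 in Model, 78.1, 84.2 and 85.3 in FUCO-0.5, 88.3, 84.9 and 83.7 in FUCO-1, 115, 122 and 113 in FUCO-2 and 172, 181 and 174 in RES. The FUCO-2 libraries lay above all Model and lower-dose libraries and within the Con range, and the RES libraries lay above all others. WARS1 rose by 0.28 ± 0.0662 (SE, adjusted p = 0.00351) at 2 µM and 0.88 ± 0.0659 (SE, adjusted p = 6.55e-11) with RES. LARS1, the leucyl synthetase, had the largest rise of the role at 2 µM. It held 124, 136 and 129.7 CPM in Con, 103, 110.3 and 104 in Model, 106, 116 and 106 in FUCO-0.5, 125, 121 and 102 in FUCO-1, 143, 183 and 155 in FUCO-2 and 139.5, 146 and 154 in RES. The FUCO-2 and RES libraries lay above Model and overlapped each other. LARS1 rose by 0.60 ± 0.0857 (SE, adjusted p = 2.56e-05) at 2 µM and by 0.47 ± 0.0855 (SE, adjusted p = 7.27e-05) with RES.

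Of the secreted factors and VLDLR, 1 was lower at 0.5 µM, 2 lower at 1 µM, 1 higher at 2 µM (2 without Con replicate 1, Con replicate 2 or FUCO-2 replicate 3), and 3 higher and 1 lower with RES, of 4 genes and against 1.45%, 3.21%, 20.5% and 49.4% of all tested genes passing. GDF15, a stress hormone that acts on appetite, held 368, 225 and 235 CPM in Con, 274, 319 and 289 in Model, 113, 128 and 156 in FUCO-0.5, 135, 144 and 149 in FUCO-1, 358, 382 and 238 in FUCO-2 and 755, 712 and 577 in RES. FUCO-0.5 and FUCO-1 lay below all Model libraries, FUCO-2 overlapped Model, RES lay above all others, and Con replicate 1 stood apart from the other 2 Con libraries. GDF15 was lower at 0.5 µM (-1.15 ± 0.162 SE, adjusted p = 7.75e-05) and 1 µM (-1.04 ± 0.162 SE, adjusted p = 0.000214), stood at 0.15 at 2 µM (interval -0.19 to 0.50, adjusted p = 0.543) and rose by 1.21 ± 0.16 (SE, adjusted p = 9.20e-07) with RES. At 1 µM the size of its log2 fold change was just under 1 without Model replicate 2 and without FUCO-1 replicate 1, and the call held in both fits.

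STC2, a secreted glycoprotein, held 40.6, 43.7 and 48.4 CPM in Con, 29.8, 31 and 31.8 in Model, 22.5, 27.7 and 27.7 in FUCO-0.5, 34, 34.7 and 29.4 in FUCO-1, 75.6, 65.4 and 61.1 in FUCO-2 and 100.2, 111 and 107 in RES. FUCO-2 lay above all Con, Model and lower-dose libraries, and RES lay above FUCO-2. STC2 rose by 1.12 ± 0.0948 (SE, adjusted p = 1.46e-08) at 2 µM, the only member beyond a log2 fold change of 1 there, and by 1.78 ± 0.0944 (SE, adjusted p = 1.18e-13) with RES. VLDLR, a receptor for triglyceride-rich lipoproteins, held 13.1, 14.7 and 13.5 CPM in Con, 9.87, 12 and 12.1 in Model, 7.52, 9.57 and 8.76 in FUCO-0.5, 8.22, 9.23 and 7.65 in FUCO-1, 13, 14.9 and 13.6 in FUCO-2 and 24, 27.2 and 26.7 in RES. The RES libraries lay above all others, and VLDLR rose by 1.20 ± 0.107 (SE, adjusted p = 1.67e-09). Its lower value at 1 µM (-0.44 ± 0.118 SE, adjusted p = 0.0397) remained in 18 of 24 alternative settings. FGF21, a liver hormone, was the member that was lower with RES in this role. It held 3.12, 0.955 and 1.41 CPM in Con, 2.74, 2.56 and 2.82 in Model, 1.21, 1.57 and 2.12 in FUCO-0.5, 2.53, 2.02 and 2.63 in FUCO-1, 4.09, 6.02 and 3.24 in FUCO-2 and 1.62, 1.94 and 0.84 in RES. RES lay below Model, FUCO-2 lay above it, and the Con libraries were spread from below the lowest Model library to above the highest. RES against Model stood at -0.89 ± 0.325 (SE, adjusted p = 0.0252), from 2.71 ± 0.132 CPM in Model to 1.46 ± 0.565 in RES (SD, n = 3). That call was lost without RES replicate 3 (adjusted p = 0.142), Model replicate 1 (0.0574) or Model replicate 3 (0.0624).

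Neighbouring doses were also tested against each other. Between 0.5 and 1 µM, 0 members passed in edgeR, where 0.00687% of all tested genes did, and 2 members passed in DESeq2. At an unadjusted p below 0.05 in edgeR stood 18 of 43 members and 1557 of the 14557 tested genes. The libraries did not overlap for 16 members in this step, against 14.2% of all tested genes. From 1 to 2 µM, 34 members rose and 0 fell, where 6.3% of all tested genes passed (4.07% higher and 2.23% lower), and 37 of 43 had libraries that did not overlap, against 20.3% of all tested genes. The median member rose by 0.46, and GDF15 (1.20 ± 0.162 SE, adjusted p = 6.25e-05) and STC2 (1.04 ± 0.0943 SE, adjusted p = 2.06e-07) exceeded 1 on the log2 scale, as 0.577% of all tested genes did. PPP1R15A rose by 0.88 ± 0.0749 (SE, adjusted p = 2.06e-07) in this step, and ATF4 stood at 0.14 (interval -0.00087 to 0.27, adjusted p = 0.218). By role, 4 of 5 transcription factors, 6 of 8 regulators, 6 of 10 enzymes, 4 of 4 transporters, 11 of 12 tRNA charging genes and 3 of 4 secreted factors or receptors rose. Without FUCO-1 replicate 1, 2 of 5 transcription factors rose, with CEBPG (adjusted p = 0.0688) and ATF5 (0.0548) lost. The calls of CEBPG (0.25, adjusted p = 0.0427) and DDIT3 (0.39, adjusted p = 0.0441) remained in 11 of 24 alternative settings each, and that of ATF5 (0.30, adjusted p = 0.0228) in 20.

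RES and 2 µM FUCO were then compared directly. With RES, 24 members were higher and 7 lower, where 48.4% of all tested genes passed, 22.5% higher and 26% lower, and the libraries did not overlap for 28 members, against 57.2% of all tested genes. The median member was 0.25 higher with RES. Transport passed in 4 of 4 members with a median of 0.55, and the regulators in 6 higher and 1 lower of 8, whereas tRNA charging passed in 4 higher (GARS1, WARS1, EPRS1, NARS1) and 1 lower (AARS1, -0.30 ± 0.0765 SE, adjusted p = 0.00201) of 12, with a median of 0.12. Calls of tRNA charging and transport depended on single libraries. The adjusted p of EPRS1 was 0.154 and that of NARS1 0.0639 without FUCO-2 replicate 1. Without FUCO-2 replicate 3 it was 0.255 for SLC7A5 and 0.193 for SLC7A1, whose calls remained in 17 and 20 of 24 alternative settings. Transport passed in 2 of 4 members without FUCO-2 replicate 3 or without any 1 RES library, and tRNA charging in 2 higher and 1 lower without FUCO-2 replicate 1.

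Beyond a log2 difference of 1 were NIBAN1 (2.95 ± 0.141 SE, adjusted p = 3.85e-14), ALDH1L2 (2.76 ± 0.191 SE, adjusted p = 2.20e-11) and GDF15 (1.06 ± 0.159 SE, adjusted p = 6.61e-06), higher with RES, and FGF21 (-1.62 ± 0.304 SE, adjusted p = 0.00011), higher with FUCO, where 9.02% of all tested genes lay beyond 1. JDP2 was also lower with RES, at -0.61 ± 0.104 (SE, adjusted p = 3.33e-05). Genes for which the direct test did not separate RES from 2 µM FUCO included ATF4 (-0.04, interval -0.17 to 0.10), DDIT4 (-0.01, interval -0.26 to 0.25) and SARS1 (0.01, interval -0.16 to 0.17), with adjusted p-values of 0.65, 0.959 and 0.953.

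**Figure D4:**
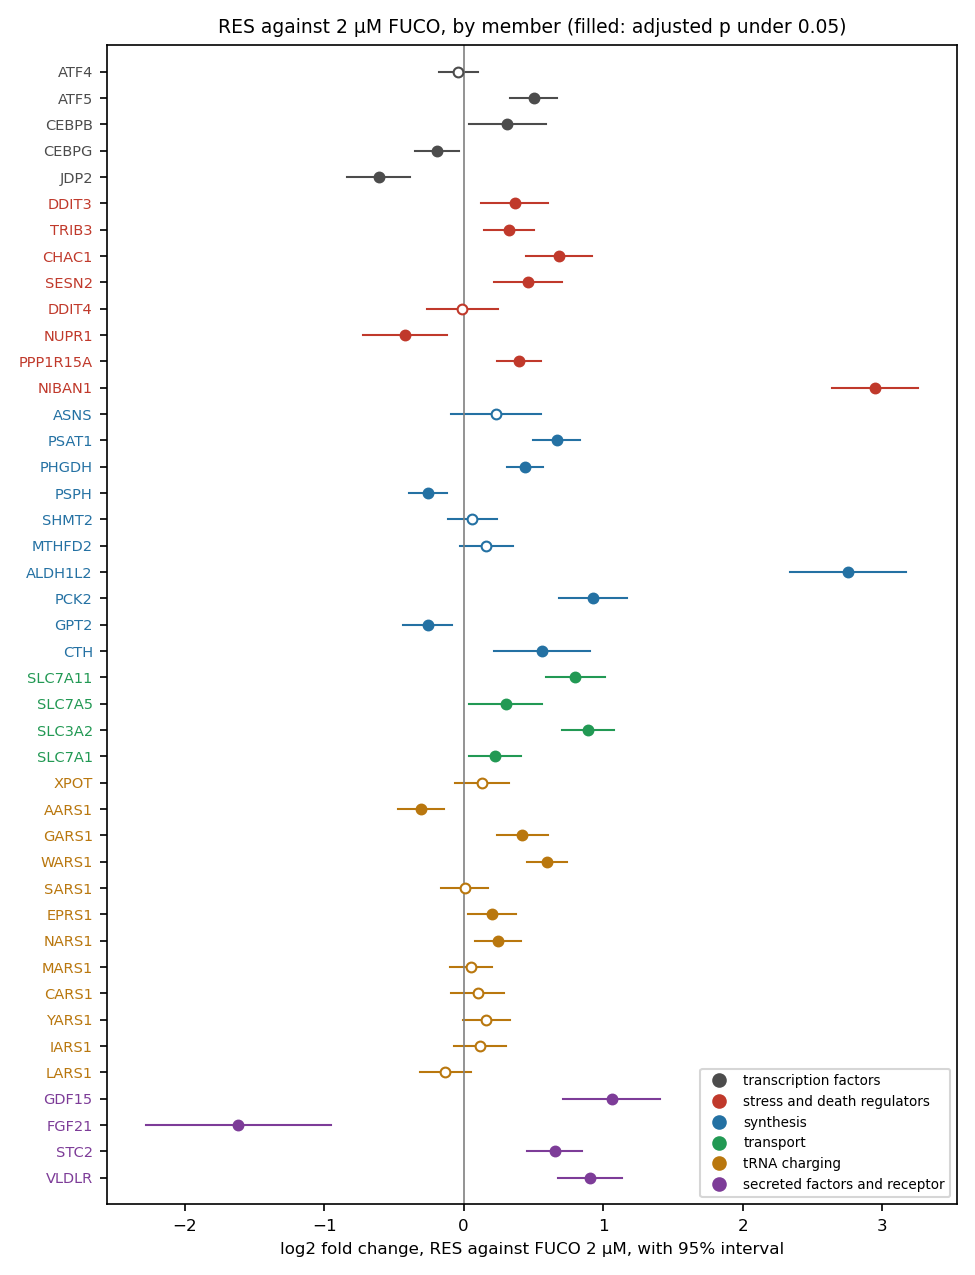
Log2 difference between RES and FUCO-2 for each of the 43 genes, by role, with the 95% interval and filled points for an adjusted p below 0.05. NIBAN1 and ALDH1L2 lie furthest above 0 and FGF21 furthest below it, and most tRNA charging genes lie close to 0.

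Both groups were also set against Con. In FUCO-2, 11 members were higher and 5 lower, where 24.8% of all tested genes passed (13% higher and 11.9% lower), 1 member (FGF21) was beyond a log2 fold change of 1 (3.17% of all tested genes) and 19 did not overlap (33.9%). Without FUCO-2 replicate 2 the count was 10. In RES, 29 were higher and 6 lower, where 57.3% passed (28.8% higher and 28.5% lower), 5 were beyond 1 (13.3%) and 37 did not overlap (64.6%). ATF4 was lower than in Con in both, at -0.35 ± 0.0632 (SE, adjusted p = 0.000217) and -0.39 ± 0.0631 (SE, adjusted p = 1.30e-05), and STC2 was higher in both, at 0.61 and 1.26. These comparisons share the Con libraries and hold FFA as well as the agent on 1 side.

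Other genes of the pathway, taken from lists by role, were counted in the same way. Of 17 genes for eIF2 kinases and translation control, 5 were higher and 1 lower at 2 µM (35.3%, against 20.5% of all tested genes). With RES, 10 were higher and 0 lower (58.8%), where 49.4% of all tested genes passed, 24.4% higher and 25.1% lower. The lowest p at 2 µM was that of EIF2AK3 (PERK, the kinase of the endoplasmic reticulum), which fell by 0.52 on the log2 scale (adjusted p = 4.50e-05), and with RES that of EIF2B3, a subunit of the eIF2 exchange factor, which rose by 0.75 (adjusted p = 5.39e-06). Of 9 other cytosolic synthetases, 3 were higher at 2 µM (33.3%, against 20.5% of all tested genes, and 1 gene without Model replicate 3), led by TARS1 (0.33, adjusted p = 0.00369). In the tRNA charging role 11 of 12 were higher, but both lists were chosen with earlier results of these data known, so the contrast is not independent of them. With RES, 7 of the 9 were higher and 1 lower (88.9%, against 49.4%), led by FARSB (0.86, adjusted p = 2.02e-08). Of 16 mitochondrial synthetases tested, 8 were higher and 1 lower at 2 µM (56.2%, against 20.5% of all tested genes), led by MARS2 (0.40, adjusted p = 0.00172), and 5 higher and 2 lower with RES (43.8%, below the 49.4% of all tested genes), led by SARS2 (-0.87, adjusted p = 1.72e-05). These 9 at 2 µM became 4 without Model replicate 2 and 5 without FUCO-2 replicate 1 or FUCO-2 replicate 2, and the 7 with RES became 4 without Model replicate 1 or Model replicate 2.

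Of 15 other ATF4 or CHOP targets, 4 were lower at 0.5 µM, 3 lower at 1 µM, 6 higher and 1 lower at 2 µM and 10 higher and 4 lower with RES. These are 26.7%, 20%, 46.7% and 93.3% of the list, against 1.45%, 3.21%, 20.5% and 49.4% of all tested genes, and the count at 0.5 µM was 2 without FUCO-0.5 replicate 1 or Model replicate 2. ATF3, a stress-induced repressor and activator, had the lowest p at each FUCO dose. It fell by 2.06 at 0.5 µM, 2.37 at 1 µM and 1.16 at 2 µM on the log2 scale (adjusted p = 1.73e-10, 9.27e-12 and 5.11e-07), from a mean of 204 CPM in Model. With RES the lowest p was that of CCPG1, a receptor for autophagy of the endoplasmic reticulum, which rose by 1.67 (adjusted p = 1.66e-12).

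The endoplasmic reticulum chaperones and XBP1 or ATF6 targets, the other arms of the unfolded protein response, passed mostly as lower at 2 µM, where most members passed as higher. Of 16, 9 were lower at 0.5 µM, 13 lower at 1 µM and 15 lower at 2 µM, where the median was -0.53, and 7 were higher and 1 lower with RES. The lower calls compare with 1.16%, 2.32% and 9.71% of all tested genes lower at the 3 doses. The 8 calls with RES in either direction (50%) are near the 49.4% of all tested genes passing. By direction, the 7 higher and 1 lower of 16 stand beside 24.4% of all tested genes higher and 25.1% lower. The count at 0.5 µM was 3 without Model replicate 3, 4 without Model replicate 1 or FUCO-0.5 replicate 1, and 5 without Model replicate 2 or FUCO-0.5 replicate 2. In the direct comparison, where 22.5% of all tested genes were higher, all 16 were higher with RES than with 2 µM FUCO, with a median of 0.75. HSPA5 (BiP), the chief chaperone, had the lowest p there and stood at 2162 against 1072 CPM (1.01 ± 0.0746 SE, adjusted p = 6.79e-11). CALR, calreticulin, had the lowest p at 2 µM against Model, at 1064 against 1825 CPM (-0.78 ± 0.0715 SE, adjusted p = 5.76e-08).

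**Figure D5:**
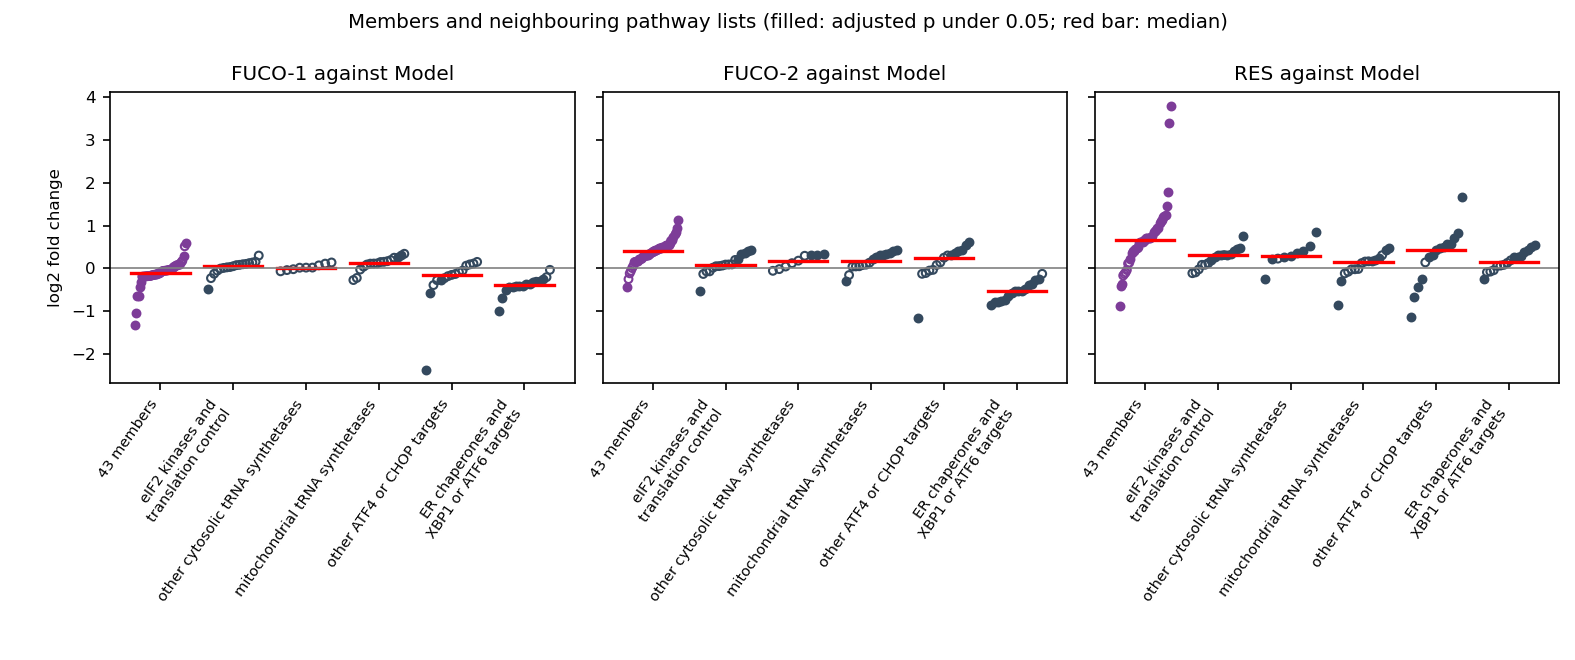
Log2 fold change of the 43 members and of 5 lists of other pathway genes in FUCO-1, FUCO-2 and RES, each against Model, with filled points for an adjusted p below 0.05 and bars for medians. At 2 µM the members lie mostly above 0 and the endoplasmic reticulum list below it, with 15 of its 16 genes lower.

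The hepatocyte label was checked on 10 marker genes, all detected, whose summed level was 64220 to 72120 CPM in Con, 53360 to 53750 in Model, 44590 to 56190 in FUCO-0.5, 47520 to 50000 in FUCO-1, 35980 to 40540 in FUCO-2 and 15430 to 15860 in RES. Against Model, 9 of 10 were lower at 2 µM (HNF4A did not pass), where 9.71% of all tested genes were lower, and 9 of 10 were lower with RES, where 25.1% were lower. FGB, a fibrinogen chain, was higher with RES instead, at 0.42 on the log2 scale (adjusted p = 0.00224). Of the 11 leukocyte, endothelial and stellate markers, CDH5 and ACTA2 were at 0 in all libraries, and PTPRC, CD3E, CD68 and VWF had group means of at most 0.145 CPM. The summed leukocyte markers ran from 2.87 to 3.70 CPM in Con, 12.5 to 18.03 in Model, 16.7 to 19.6 in FUCO-0.5, 12.8 to 18.5 in FUCO-1, 10.7 to 13.5 in FUCO-2 and 5.77 to 6.73 in RES. Nearly all of this was LYZ (lysozyme), which was higher in Model than in Con, at 15.9 against 3.16 CPM (2.33 on the log2 scale, adjusted p = 1.48e-09), and lower with RES than in Model, at 6.08 CPM (-1.40, adjusted p = 3.95e-08). The summed stellate markers ran from 18.4 to 21.3 CPM in Con, 13.0 to 16.5 in Model, 12.8 to 13.7 in FUCO-0.5, 13.1 to 16.97 in FUCO-1, 10.8 to 13.4 in FUCO-2 and 3.92 to 4.68 in RES. Most of this outside RES was PDGFRB, a growth factor receptor, which was lower with RES than in Model, at 1.16 against 12.3 CPM (-3.39, adjusted p = 6.38e-14). The endothelial sum was at most 1.94 CPM. The part of LYZ and PDGFRB in the results above was not tested. The part of the hepatocyte decline in the rise of the 43 genes, which are counted relative to all genes, was not tested.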

How the data were processed

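RNA-seq read counts were deposited as 1 table of 18 libraries from Hep3B cells, 3 per group, and the 6 groups were taken from the sample titles. By the study's methods, the authors trimmed reads with fastp, aligned them with STAR to GRCh38 and counted them per gene with featureCounts, with 3 biological replicates per condition and a single sequencing run. The strand setting and the treatment of reads with several alignments are not given in the sources used here. Raw counts as deposited were tested in edgeR 4.0.16 (R 4.3.3): genes were filtered by filterByExpr (minimum count 10, minimum total 15), scaled by TMM and fitted with 1 term per group over all 18 libraries (glmQLFit, glmQLFTest), and p-values were adjusted by Benjamini and Hochberg over the 14557 genes tested. 95% intervals use the standard error and 12 residual degrees of freedom. The script was tested on simulated data. The p-values measure the spread between replicate cultures of 1 line. The members, their roles and the other lists were chosen with earlier results of these data known. ATF4, DDIT3, members beyond a log2 fold change of 1 in any main comparison, and otherwise the member of lowest p in a role were named first, and of each other list the gene of lowest p, with further members given as examples chosen after their values were seen. Alternatives were DESeq2 1.42.0, RLE scaling, other filters, a replicate block, fits to the 2 groups alone and leaving out each library.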

Additional observations from a re-analysis of the deposited data

How the results depend on the processing

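Over 24 alternatives per comparison, the 222 calls of members kept their direction in all 5325 fits, and 5059 of these fits also kept the call. The number of members passing was within 1.5 times the reported number in all but these cases. Between 0.5 and 1 µM FUCO, where edgeR passed 0, the number was 2 with DESeq2, 3 without a filter on low counts and 1 when only those groups were fitted. For FUCO-2 against Con it was 6 when only those groups were fitted, in place of 16. Leaving out 1 library gave 14 to 25 for Model against Con, 5 to 14 for FUCO-0.5, 4 to 8 for FUCO-1, 23 to 30 for FUCO-2 and 34 to 37 for RES against Model, 0 to 2 between 0.5 and 1 µM, 28 to 36 from 1 to 2 µM, 26 to 31 for RES against FUCO-2, 10 to 17 for FUCO-2 against Con and 33 to 36 for RES against Con. The count between 0.5 and 1 µM was above 0 without Con replicate 1, FUCO-0.5 replicate 3, FUCO-1 replicate 2 or FUCO-2 replicate 1. Counts by role and by list without each library, a check chosen after seeing the data, are given beside those counts for the libraries that moved them by more than 1.5 times, other than changes of 1 gene. The cause of these shifts was not tested. Replicate numbers were not taken as pairs in the main fit. Deviations of same-numbered libraries correlated between -0.372 and 0.331 (median 0.0362, 45 pairs), with 12 pairs over 0.1 and 17 below 0. Those of differently numbered libraries correlated between -0.408 and 0.443 (median -0.0298, 90 pairs). These ranges cannot show whether part of the groups shared a replicate effect. With the replicate block, the numbers passing were 21, 14, 8, 29 and 37 in the 5 comparisons of Model with Con and of each agent with Model, 0 and 35 between neighbouring doses, 31 for RES against FUCO-2, and 17 and 35 for FUCO-2 and RES against Con, each within 1.5 times the reported number. ALDH1L2, NIBAN1, FGF21 and ASNS rest on few counts in most or all groups, which limits their precision.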
